A study of Mus musculus with 18 samples.

Results

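The genes described here are enzymes of hepatic bile acid synthesis and the nuclear receptors that regulate it, followed in liver RNA from wild-type (WT) mice and *Apoe* knockout (*Apoe* KO) mice, which lack apolipoprotein E, with or without ethanol. They were chosen by symbol, as *Cyp7a1*, *Cyp8b1*, *Cyp27a1*, *Cyp7b1*, *Nr0b2*, *Nr1h4*, *Hsd3b7*, *Akr1d1*, *Baat* and *Slc27a5*. Of these 10 genes, 9 have a row among the 15052 genes of the deposited table, and *Hsd3b7* was not analysed here. Bulk RNA sequencing covered 4 pair-fed and 5 EtOH-fed WT mice, with 5 pair-fed and 4 EtOH-fed *Apoe* KO mice, the last numbered 1, 2, 4 and 5. The mice were aged 10 to 12 weeks. All of them took a liquid control diet for 5 days of acclimation, after which the EtOH-fed mice took a liquid diet with 5% (v/v) ethanol and the pair-fed mice an isocaloric control diet for 10 days. A gavage on day 11 delivered 5 g/kg ethanol to the EtOH-fed mice and 9 g/kg dextrin-maltose to the pair-fed mice, and livers of EtOH-fed mice were taken 9 h later. The WT mice were C57BL/6J, and the knockout is a germline one, not confined to the liver.

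Bile acids are made from cholesterol in hepatocytes, and their synthesis is the main route by which the body disposes of cholesterol. The classic pathway opens with *Cyp7a1*, and the alternative pathway with *Cyp27a1* and *Cyp7b1*. *Hsd3b7* and *Akr1d1* then modify the sterol ring, *Cyp8b1* directs synthesis toward cholic acid, and *Slc27a5* and *Baat* prepare bile acids for secretion by activating them and joining them to taurine or glycine. Bile acids that return to the hepatocyte bind the farnesoid X receptor (FXR, *Nr1h4*), which induces the small heterodimer partner (SHP, *Nr0b2*), and SHP in turn represses *Cyp7a1* and *Cyp8b1*.

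Each value is the count of reads on a gene after scaling to a common total and rounding, so that the 18 mice have totals of 32267493 to 32292618. The spacing of the low values gave the underlying depth in 13 of the 18 mice, from 5.6 to 52.2 M reads. *Apoe* itself ranged from 611230 to 798431 in WT mice and from 8586 to 108651 in *Apoe* KO mice, with no overlap, so that the transcript was lower but still counted in the knockout livers. All mice are labelled female. EtOH-fed *Apoe* KO mouse 1 goes against that label, with *Xist* at 826 against 15227 to 30379 in the other 17 mice and the Y-linked gene *Ddx3y* at 1077 against 2 to 118. Differences that rest on this mouse are therefore also given without it for the 9 genes, and for the lists of pathway genes where a call changes. Sex-biased genes are given only with it. All 8 hepatocyte markers had rows and were above 0 in every mouse, and their summed value was 2510043 to 3283522 in pair-fed WT, 2995511 to 3944927 in pair-fed *Apoe* KO, 2158291 to 3794475 in EtOH-fed WT and 2380763 to 3281178 in EtOH-fed *Apoe* KO mice. Most of that sum was *Alb*, with a mean value of 2224519.8 over 18 mice. In whole liver, fewer cells of a type and less RNA per cell cannot be told apart.

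The 9 genes differed widely in level. Divided by exon length, the mean value over 18 mice was highest for *Slc27a5*, the bile acid CoA ligase, at 8766 per kb. *Cyp27a1* (4676), *Cyp8b1* (4224) and *Baat* (3692) followed, then *Nr1h4* (2866), *Akr1d1* (2121) and *Cyp7a1* (1770 per kb). *Nr0b2* (555.0) and *Cyp7b1* (340.2 per kb) were the least abundant. Within the mice of a group, the SD of log2(value + 1) was between 0.03 and 0.30 for *Baat*, *Akr1d1*, *Nr1h4*, *Slc27a5* and *Cyp27a1*, and it reached 0.75 for *Cyp7a1* and 1.38 for *Nr0b2*, both in EtOH-fed WT mice.

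**Figure D1:**
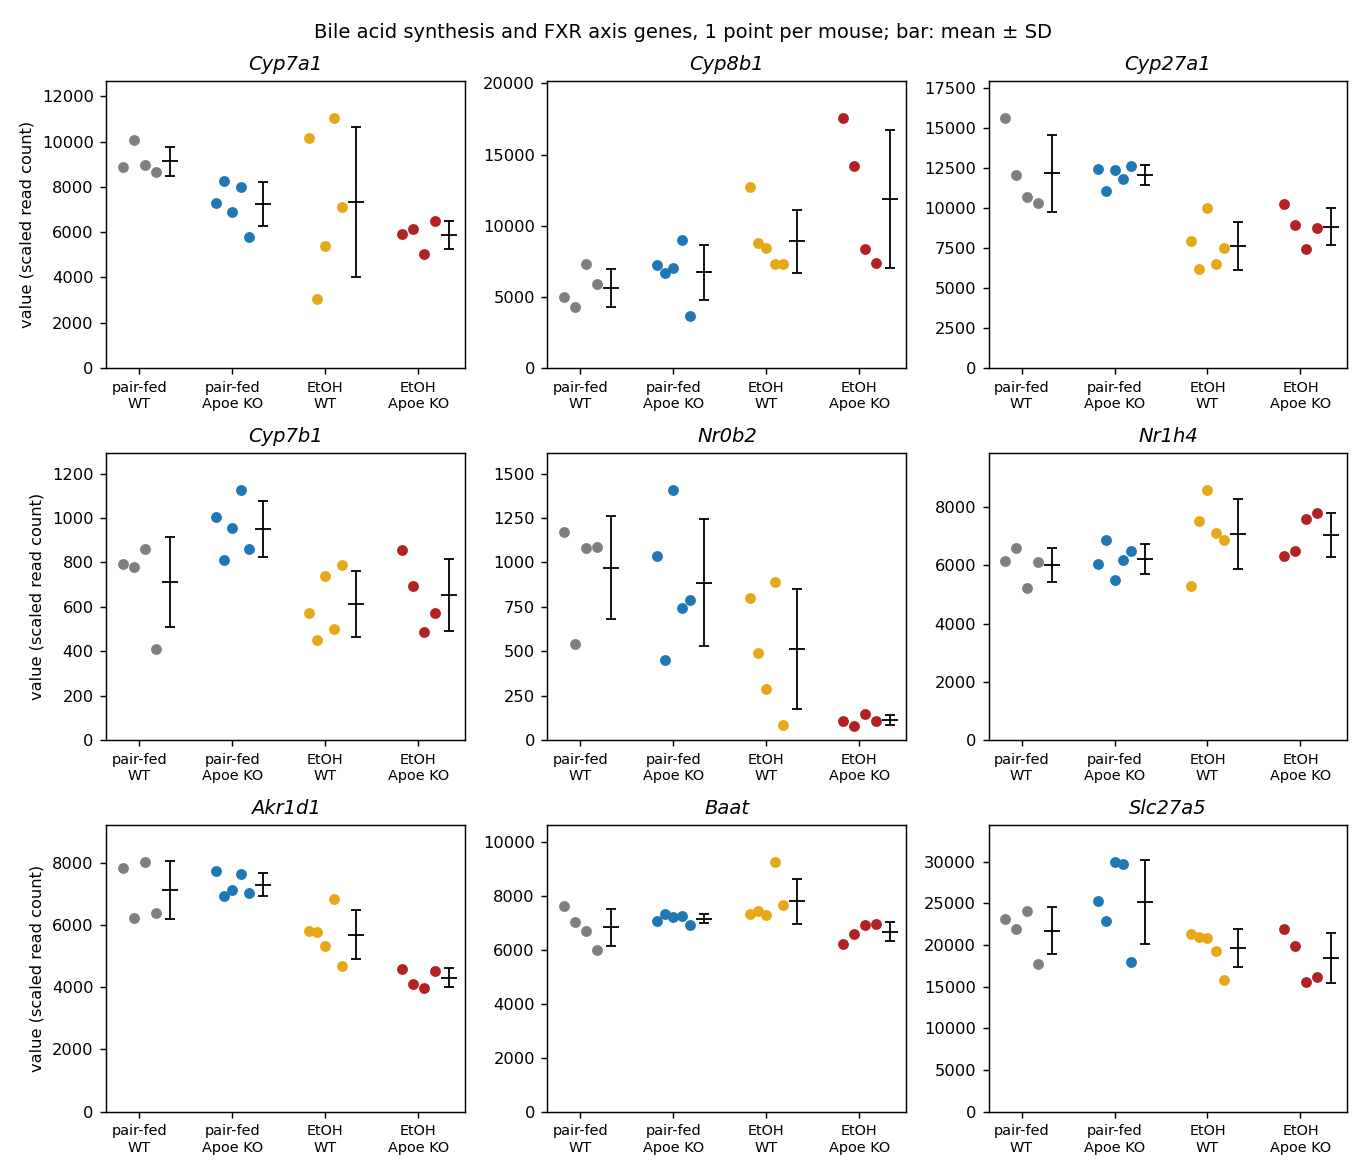
Values (scaled read counts, linear axes from 0) of the 9 genes, with 1 point per mouse in WT mice (4 pair-fed, 5 EtOH-fed) and Apoe KO mice (5 pair-fed, 4 EtOH-fed); the bar beside each group is its mean ± SD. Nr0b2 lies between 81 and 147 in all 4 EtOH-fed Apoe KO mice, and Cyp7a1 spreads from 3056 to 11018 in EtOH-fed WT mice.

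SHP carried the largest change among the 9 genes. *Nr0b2* (chromosome 4, 133553376 to 133556536, plus strand, GRCm38) had values of 1039, 451, 1407, 746 and 789 in pair-fed *Apoe* KO mice 1 to 5, and of 107, 81, 147 and 108 in EtOH-fed *Apoe* KO mice 1, 2, 4 and 5. Every EtOH-fed *Apoe* KO mouse was below every pair-fed one, as was so for 6.01% of all genes, and *Nr0b2* was 7.58-fold lower (log2 fold change −2.92, SE 0.27, adjusted p = 2.08e-05 by limma). Leaving out mouse 1 gave −2.92 again (adjusted p = 0.000122 by limma). The 4 low values rest on an estimated 152, 34, 36 and 28 reads, whose counting error is 8.1%, 17.1%, 16.7% and 18.9%.

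In WT mice, *Nr0b2* was 1170, 539, 1081 and 1089 in pair-fed mice 1 to 4, and 802, 491, 287, 889 and 85 in EtOH-fed mice 1 to 5. The groups overlapped, and EtOH-fed WT mouse 5 lay inside the range of the EtOH-fed *Apoe* KO mice. With ethanol it differed by −1.26 on the log2 scale (SE 0.54, adjusted p = 0.143 by limma). Between the genotypes under ethanol it was −1.82 (SE 0.53, adjusted p = 0.0695 by limma), and the interaction of diet and genotype was −1.66 (SE 0.68, adjusted p = 0.209 by limma), so neither passed. Without EtOH-fed *Apoe* KO mouse 1 they were −1.82 (adjusted p = 0.122 by limma) and −1.65 (adjusted p = 0.247 by limma). Both passed without EtOH-fed WT mouse 5, where the genotype difference was −2.37 (adjusted p = 0.00312 by limma) and the interaction −2.20 (adjusted p = 0.0165 by limma). With that mouse kept, the genotype difference passed with all 4 groups in the fit (adjusted p = 0.0257 by limma) and after centring on hepatocyte markers (−1.85, adjusted p = 0.0327 by limma). In pair-fed mice *Nr0b2* differed between genotypes by −0.17 (SE 0.29).

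The enzyme *Akr1d1*, which reduces the ring double bond of bile acid intermediates, was lower in the same mice. *Akr1d1* (chromosome 6, 37530173 to 37568815, plus strand) was 7723, 6917, 7130, 7648 and 7010 in pair-fed *Apoe* KO mice and 4595, 4108, 3971 and 4522 in EtOH-fed *Apoe* KO mice. The 2 ranges did not overlap, and the gene fell 1.70-fold (log2 fold change −0.76, SE 0.08, adjusted p = 5.93e-05 by limma). Without EtOH-fed mouse 1 the fall was −0.80 (adjusted p = 0.00015 by limma). In WT mice it was 7837, 6226, 8016 and 6383 when pair-fed and 5807, 5765, 5309, 6824 and 4680 when EtOH-fed, a log2 difference of −0.33 (SE 0.12, adjusted p = 0.104 by limma). That difference passed with all 4 groups in the fit (adjusted p = 0.039 by limma) and after centring on hepatocyte markers (−0.52, adjusted p = 0.0215 by limma).

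Under ethanol, all 4 *Apoe* KO mice had less *Akr1d1* than all 5 WT mice. Of all genes, 8.13% had EtOH-fed genotypes that did not overlap, and 151 of the 15052 were lower in *Apoe* KO mice in this way. The difference of −0.39 (SE 0.11) in *Akr1d1* did not pass (adjusted p = 0.0677 by limma). Without EtOH-fed WT mouse 5 it was −0.46 (adjusted p = 0.0322 by limma). It also passed with median-of-ratios size factors (−0.52, adjusted p = 0.0463 by limma) and with all 4 groups in the fit (adjusted p = 0.0278 by limma). The interaction was −0.43 (SE 0.15, adjusted p = 0.121 by limma). Leaving out EtOH-fed *Apoe* KO mouse 1 gave −0.43 (adjusted p = 0.0832 by limma) for the genotypes and −0.47 (adjusted p = 0.111 by limma) for the interaction.

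**Figure D2:**
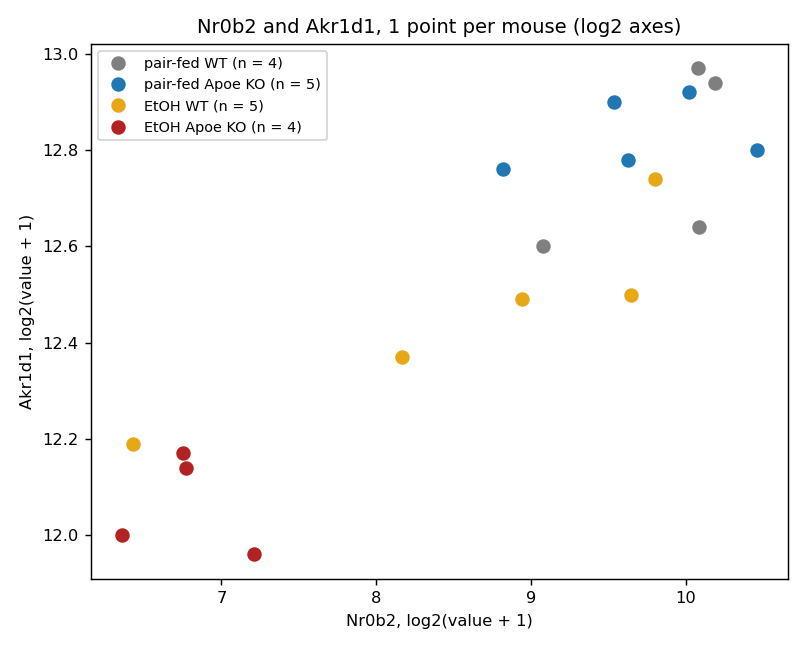
log2(value + 1) of Nr0b2 (x axis) and Akr1d1 (y axis), with 1 point per mouse coloured by group. The 4 EtOH-fed Apoe KO mice lie together at the lower left, and EtOH-fed WT mouse 5, with Nr0b2 at 85 and Akr1d1 at 4680, lies beside them.

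*Akr1d1* was also the gene with the pattern most like that of *Nr0b2*. Over all 18 mice, with log2 values centred and divided by the SD of each gene, the root-mean-square difference between them was 0.405, the smallest among 11073 genes with a mean value of at least 100. *Srebf1*, the transcription factor of hepatic lipogenesis, followed at 0.435 and *D630039A03Rik* at 0.46. This likeness is a description over mice that share the group differences and carries no test.

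The 250 bases upstream of the RefSeq start (GRCm38.p6) are shown for *Nr0b2* and *Akr1d1*, which fell together, and for *Cyp8b1*, which rose. They lie at chr4:133553126-133553375 (plus strand), chr6:37529923-37530172 (plus strand) and chr9:121916306-121916555 (minus strand), and RefSeq windows were given for 6 of the 10 genes. Capitals mark matches, on either strand, to CAAGGNCA, an element of the receptor LRH-1, or to AGGTCA, the half-site of many nuclear receptors. Where N is T, the former contains the latter.
Nr0b2: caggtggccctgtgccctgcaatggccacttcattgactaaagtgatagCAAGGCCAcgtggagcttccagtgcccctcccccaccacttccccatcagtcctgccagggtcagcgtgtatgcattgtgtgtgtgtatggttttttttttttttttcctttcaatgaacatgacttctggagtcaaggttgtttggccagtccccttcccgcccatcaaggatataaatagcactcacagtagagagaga
Akr1d1: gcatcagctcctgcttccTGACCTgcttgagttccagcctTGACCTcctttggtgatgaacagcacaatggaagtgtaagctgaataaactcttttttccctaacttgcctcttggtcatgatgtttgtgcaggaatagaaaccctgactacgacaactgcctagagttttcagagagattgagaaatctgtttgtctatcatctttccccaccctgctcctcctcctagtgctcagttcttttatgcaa
Cyp8b1: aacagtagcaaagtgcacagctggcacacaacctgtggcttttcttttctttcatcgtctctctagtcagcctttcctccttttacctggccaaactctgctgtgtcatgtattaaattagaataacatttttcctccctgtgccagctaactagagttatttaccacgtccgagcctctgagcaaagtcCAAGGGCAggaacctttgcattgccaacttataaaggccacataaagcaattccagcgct
The LRH-1 letters stood at −201 to −194 in *Nr0b2* and at −60 to −53 in *Cyp8b1*, counted from the start, and 6.71% of 32851 RefSeq windows of 300 bases hold them. *Akr1d1* had the half-site at −232 to −227 and at −210 to −205, both on the opposite strand, and 16.3% of windows hold it. The letters TATAAA, left in lower case, began at −28 in *Nr0b2* and at −31 in *Cyp8b1*, and 13.6% of windows hold them. AGGTCANTGACCT, an inverted repeat of the half-site to which FXR binds, is in 3 windows (0.00913%) and in none of the 6. A run of letters this rare would be missing from nearly any 6 windows, so its absence carries no information on FXR binding. A match is a run of letters and not a bound site.

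*Cyp8b1*, the hydroxylase that directs synthesis toward cholic acid, rose with ethanol in both genotypes. *Cyp8b1* (chromosome 9, 121914356 to 121916305, minus strand) was 5002, 4297, 7326 and 5926 in pair-fed WT mice and 12704, 8818, 8446, 7303 and 7347 in EtOH-fed WT mice. It rose 1.58-fold (log2 fold change 0.66, SE 0.18, adjusted p = 0.0283 by limma), although the highest pair-fed mouse was just above the lowest EtOH-fed one. In *Apoe* KO mice it was 7227, 6701, 7007, 9033 and 3664 when pair-fed and 17542, 14198, 8364 and 7363 when EtOH-fed, a 1.72-fold rise (0.79, SE 0.27, adjusted p = 0.0491 by limma).

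Both calls for *Cyp8b1* were close to the threshold. In *Apoe* KO mice the 2 highest values were those of mice 1 and 2, and leaving out mouse 1 gave a log2 difference of 0.57 (adjusted p = 0.142 by limma). That call was also lost without mouse 2, without pair-fed mouse 1, 2, 3 or 5 and with median-of-ratios size factors. In WT mice it was lost without pair-fed mouse 1, 2 or 4 or EtOH-fed mouse 2, with all 4 groups in the fit and after centring on hepatocyte markers, with adjusted p-values of 0.0514 to 0.15 by limma. The log2 fold change stayed above 0 throughout. *Abcb4*, the canalicular phospholipid transporter, was the gene most like *Cyp8b1* across the 18 mice (0.511), followed by *Sdc1* (0.517) and *Slc25a22* (0.519).

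*Cyp7a1*, the rate-limiting enzyme of the classic pathway, did not pass in any of the 5 comparisons. *Cyp7a1* (chromosome 4, 6265612 to 6275633, minus strand) was 8874, 10082, 8947 and 8640 in pair-fed WT mice, and 10150, 3056, 5369, 11018 and 7125 in EtOH-fed WT mice. Ethanol-fed WT mice thus spanned the pair-fed range on both sides, with a log2 difference of −0.45 (SE 0.29, adjusted p = 0.335 by limma). In *Apoe* KO mice it was 7299, 8237, 6878, 7985 and 5788 when pair-fed and 5933, 6127, 5015 and 6475 when EtOH-fed (−0.29, SE 0.11, adjusted p = 0.0791 by limma), and this difference passed with median-of-ratios size factors (−0.42, adjusted p = 0.0316 by limma) and without pair-fed mouse 5 (−0.37, adjusted p = 0.0251 by limma). Without EtOH-fed mouse 1 it was −0.30 (adjusted p = 0.112 by limma).

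In pair-fed mice, every *Apoe* KO value of *Cyp7a1* was below every WT value, by 1.27-fold (log2 difference −0.34, SE 0.11, adjusted p = 0.112 by limma). Of all 15052 genes, 3.02% were lower in *Apoe* KO mice in this way. After centring on hepatocyte markers, which lowers the median of all genes by about 0.31 in this comparison, the *Cyp7a1* difference was −0.65 (adjusted p = 0.00806 by limma), and 15.2% of all genes were then called lower. Even the most similar genes to *Cyp7a1* were less like it than those of *Nr0b2*, namely *Gm28370* (0.778), *Ccdc50* (0.799) and *BC048644* (0.808).

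The log2 ratio of *Cyp8b1* to *Cyp7a1* within each mouse is given as a description, chosen after the values of both genes were seen. It ranged from −1.23 to −0.29 in pair-fed WT, from −0.66 to 0.18 in pair-fed *Apoe* KO, from −0.59 to 1.53 in EtOH-fed WT and from 0.19 to 1.56 in EtOH-fed *Apoe* KO mice. Only in EtOH-fed *Apoe* KO mice was *Cyp8b1* above *Cyp7a1* in all mice, on values not divided by length. The lowest EtOH-fed *Apoe* KO ratio and the highest pair-fed *Apoe* KO ratio differed by 0.01.

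*Cyp27a1*, the mitochondrial sterol hydroxylase of the alternative pathway, fell with ethanol in both genotypes. *Cyp27a1* (chromosome 1, 74713574 to 74737892, plus strand) was 15622, 12063, 10739 and 10315 in pair-fed WT mice and 7981, 6204, 10008, 6518 and 7519 in EtOH-fed WT mice. It was 12478, 11112, 12398, 11825 and 12679 in pair-fed *Apoe* KO mice and 10245, 8951, 7459 and 8763 in EtOH-fed *Apoe* KO mice. EtOH-fed mice were all below the pair-fed mice in either genotype, as was so for 6.96% of all genes in WT mice. The fall was 1.60-fold in WT mice (log2 fold change −0.67, SE 0.16, adjusted p = 0.0133 by limma) and 1.37-fold in *Apoe* KO mice (−0.46, SE 0.10, adjusted p = 0.00462 by limma), or −0.53 (adjusted p = 0.00226 by limma) without EtOH-fed mouse 1. Among the 9 genes it was the one whose call held in both genotypes under each alternative setting and without each mouse. The interaction was 0.22 (SE 0.19, adjusted p = 0.621 by limma), and 0.14 without that mouse.

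*Cyp7b1*, the oxysterol hydroxylase that follows *Cyp27a1*, fell with ethanol in *Apoe* KO mice. *Cyp7b1* (chromosome 3, 18071950 to 18243338, minus strand) was 1005, 809, 956, 1125 and 859 in pair-fed and 857, 695, 487 and 573 in EtOH-fed *Apoe* KO mice, a 1.48-fold fall (log2 fold change −0.56, SE 0.16, adjusted p = 0.0201 by limma). Without mouse 1, the highest EtOH-fed value, the fall was −0.71 (adjusted p = 0.0054 by limma). The call was lost after centring on hepatocyte markers (adjusted p = 0.0598 by limma), with all 4 groups in the fit (0.0542), and without pair-fed mouse 4 (0.0508), EtOH-fed mouse 4 (0.0598) or EtOH-fed mouse 5 (0.0628).

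In WT mice *Cyp7b1* was 795, 779, 860 and 410 when pair-fed and 572, 450, 740, 501 and 790 when EtOH-fed, with overlapping groups (−0.20, SE 0.23, adjusted p = 0.613 by limma). Pair-fed WT mouse 4 was at less than the lowest EtOH-fed WT value. Between the pair-fed genotypes the difference was 0.47 (SE 0.19, adjusted p = 0.191 by limma). *Cyp7b1* is a male-biased gene of mouse liver, and the summed value of 9 other male-biased genes was 7894 to 10508 in pair-fed WT mice and 10602 to 30683 in pair-fed *Apoe* KO mice. Much of the upper range came from *Slco1a1*, which reached 8756, and *Cyp2d9*, which reached 11098. Between these groups 2 of the 9 passed, both higher, as were 0.870% of all genes. The part of male-biased genes in the *Cyp7b1* values was not tested. The genes most like *Cyp7b1* were *Pccb* (0.51), *Glul* (0.514) and *Ces1b* (0.519).

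The conjugation enzymes and FXR itself passed in none of the 5 comparisons. *Slc27a5* (chromosome 7, 12988346 to 12998192, minus strand), which lies 6.7 Mb from *Apoe*, was 25338, 22907, 29966, 29687 and 17975 in pair-fed and 21940, 19934, 15626 and 16203 in EtOH-fed *Apoe* KO mice (log2 difference −0.44, SE 0.15, adjusted p = 0.0541 by limma). This difference passed without EtOH-fed mouse 1 (−0.53, adjusted p = 0.0343 by limma), without pair-fed mouse 5 (−0.56, adjusted p = 0.0122 by limma), with median-of-ratios size factors (−0.57, adjusted p = 0.0335 by limma), with all 4 groups in the fit (0.0349) and among genes with a mean value of at least 100 (0.0496). In WT mice *Slc27a5* was 17683 to 24072 when pair-fed and 15837 to 21297 when EtOH-fed.

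*Baat*, the conjugating acyltransferase (chromosome 4, 49489422 to 49506557, minus strand), was 7339, 7463, 7291, 9267 and 7666 in EtOH-fed WT mice and 6234, 6588, 6927 and 6979 in EtOH-fed *Apoe* KO mice. The genotypes did not overlap, and the log2 difference was −0.22 (SE 0.10, adjusted p = 0.254 by limma), or −0.19 (adjusted p = 0.394 by limma) without EtOH-fed *Apoe* KO mouse 1. Pair-fed values were 5998 to 7629 in WT and 6944 to 7343 in *Apoe* KO mice.

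*Nr1h4*, the gene of FXR (chromosome 10, 89454234 to 89533585, minus strand), ranged from 5216 to 6616 in pair-fed WT, from 5490 to 6866 in pair-fed *Apoe* KO, from 5287 to 8585 in EtOH-fed WT and from 6315 to 7809 in EtOH-fed *Apoe* KO mice. All 4 groups overlapped. Its log2 difference with ethanol was 0.22 (SE 0.13) in WT and 0.18 (SE 0.10) in *Apoe* KO mice, with adjusted p-values of 0.308 and 0.197 by limma. The difference between genotypes was 0.04 (SE 0.10) in pair-fed and 0.01 (SE 0.13) in EtOH-fed mice. Without EtOH-fed *Apoe* KO mouse 1, the ethanol value in *Apoe* KO mice was 0.23 and the genotype value in EtOH-fed mice 0.06.

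**Figure D3:**
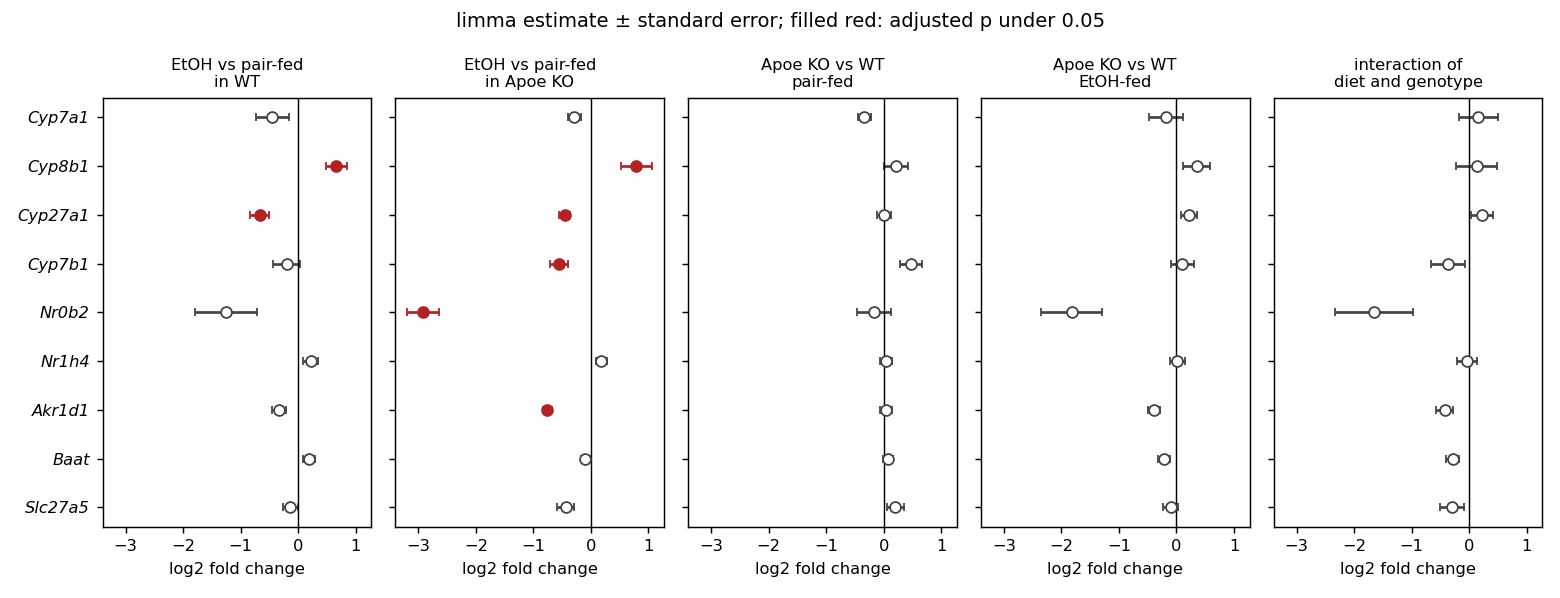
log2 fold change ± SE (limma on log2(value + 1)) of the 9 genes in the 5 comparisons; filled red points have an adjusted p under 0.05 over 15052 genes. Filled points occur only for ethanol, and Nr0b2 in Apoe KO mice lies farthest from 0, at −2.92.

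Counted together, 5 of the 9 genes passed for ethanol in *Apoe* KO mice, where 23.2% of all genes did. *Cyp8b1* was higher, as were 16.3% of all genes, and *Nr0b2*, *Akr1d1*, *Cyp27a1* and *Cyp7b1* were lower, as were 6.92%. With median-of-ratios size factors, which bring the median of all genes from 0.13 to 0.00, these shares were 11.0% higher and 10.7% lower. Centring on hepatocyte markers gave 13.0% and 3.43%. The median log2 fold change of the 9 genes was −0.44, against 0.13 over all genes. Without EtOH-fed mouse 1 the count was also 5, with *Slc27a5* passing and *Cyp8b1* not. In 3 of the 9 genes (*Nr0b2*, *Akr1d1* and *Cyp27a1*) every EtOH-fed mouse was below every pair-fed one, against the 6.01% of all genes given above.

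For ethanol in WT mice, 2 of the 9 genes passed, where 12.7% of all genes did. *Cyp8b1* was higher, as were 6.19% of all genes, and *Cyp27a1* lower, as were 6.52%, and the median was −0.20 against −0.01. With centring on hepatocyte markers, 1.24% of all genes were higher and 6.58% lower, with a median of −0.21. Both genes moved in the same direction in *Apoe* KO mice. No gene of the 9 passed between genotypes in pair-fed mice by limma, where 1.73% of all genes did. An unadjusted p under 0.05 was reached by 2 of the 9 and by 19.9% of all genes. Between genotypes in EtOH-fed mice none passed by limma, where 4.69% of all genes did. Here 3 (*Nr0b2*, *Akr1d1* and *Baat*) had an unadjusted p under 0.05, as did 18.9% of all genes. The interaction gave none by limma against 2.84% of all genes, again with 3 at an unadjusted p under 0.05, which 16.3% of all genes reached. The ethanol comparisons of the 2 genotypes thus differ in their counts, but for none of the 9 genes did the test of that difference pass.

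Markers of other liver cells moved between the same groups. The summed value of 8 Kupffer cell and macrophage markers was 4309 to 7938 in EtOH-fed WT mice and 11137 to 21115 in EtOH-fed *Apoe* KO mice, and all 8 markers were higher in the latter, as were 4.25% of all genes. With ethanol, 2 of these 8 were higher in *Apoe* KO mice, as were 16.3% of all genes, and 2 were lower in WT mice, as were 6.52%. Stellate cell and fibroblast markers summed to 9203 to 12891 in pair-fed and to 16891 to 31182 in EtOH-fed *Apoe* KO mice, with all 6 higher, where 16.3% of all genes were. Between the EtOH-fed genotypes 2 of these 6 were higher in *Apoe* KO mice. Endothelial markers summed to 3055 to 4016 in pair-fed and to 4700 to 7925 in EtOH-fed *Apoe* KO mice, with 3 of 4 higher. Cholangiocyte markers summed to 3519 to 4078 and to 2705 to 8719, with 1 of 5 higher. Most of these sums was *Spp1*, with a mean value of 3104.7 over 18 mice, against 347.9 for *Krt19*, the next highest. Of 8 neutrophil markers, 3 had rows, with sums of 111 to 297 and 154 to 377, and none passed by limma. Without EtOH-fed *Apoe* KO mouse 1, the sums in EtOH-fed *Apoe* KO mice were 11137 to 17438 for Kupffer cells and macrophages, 16891 to 31182 for stellate cells (5 of 6 higher), 4700 to 7925 for endothelium and 3552 to 8719 for cholangiocytes (2 of 5 higher). No marker with a row was at 0 in any mouse. The part of these cells in the differences of the 9 genes was not tested. After centring on hepatocyte markers, *Nr0b2*, *Akr1d1*, *Cyp27a1* and *Cyp8b1* remained called for ethanol in *Apoe* KO mice, and *Cyp7b1* did not. Of those 8 hepatocyte markers, 2 were themselves higher with ethanol in WT mice (*Tat*, 1.43, and *Cps1*, 1.12), where 6.19% of all genes were. In *Apoe* KO mice *Cps1* was higher (0.82) and *Fgb* lower (−0.48), as were 16.3% and 6.92% of all genes. Centring on them is therefore not a correction for hepatocyte content alone.

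The wider pathway was read from 3 further lists. The shares of all genes called with ethanol, 6.19% higher and 6.52% lower in WT mice and 16.3% higher and 6.92% lower in *Apoe* KO mice, are the background to their counts, and the medians over all genes were −0.01 and 0.13. Without EtOH-fed *Apoe* KO mouse 1, the calls of these lists were kept in the 3 comparisons that include it, except 1 described below. Among other enzymes of bile acid synthesis, 15 of 16 had rows. For ethanol, 4 were higher and 2 lower in WT mice (median −0.14), and 3 were higher and 3 lower in *Apoe* KO mice (median −0.22), and 4 genes were called in the same direction in both. *Cyp39a1*, a hydroxylase of oxysterols, rose by 1.33 (SE 0.20, adjusted p = 0.00124 by limma) in WT and by 0.59 (SE 0.16, adjusted p = 0.0189 by limma) in *Apoe* KO mice on the log2 scale, the latter not passing with median-of-ratios size factors (0.46) or without EtOH-fed mouse 2 (0.46). *Acox2*, the peroxisomal oxidase that shortens the side chain, rose by 0.95 (SE 0.18) and 0.73 (SE 0.13), with adjusted p-values of 0.00485 and 0.00128 by limma. *Cyp2c70*, which makes the muricholic acids of mice, had log2 fold changes of −0.98 (SE 0.17) and −0.76 (SE 0.13), with adjusted p-values of 0.0026 and 0.00103 by limma.

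Some enzymes passed in 1 genotype. *Cyp3a11*, a hydroxylase of bile acids and drugs, rose by 1.05 (SE 0.14, adjusted p = 0.000552 by limma) in WT mice, against 0.36 (SE 0.15, adjusted p = 0.101 by limma) in *Apoe* KO mice, and their difference was −0.69 (adjusted p = 0.0873 by limma). *Akr1c6*, an aldo-keto reductase, fell in *Apoe* KO mice (−0.97, SE 0.08, adjusted p = 9.6e-06 by limma) and was at −0.28 (SE 0.12, adjusted p = 0.16 by limma) in WT mice. Its interaction passed (−0.69, SE 0.14, adjusted p = 0.0117 by limma), also without each mouse in turn, but not after centring on hepatocyte markers (−0.42, adjusted p = 0.255 by limma). *Amacr*, the racemase of side-chain oxidation, fell in *Apoe* KO mice (−0.56, SE 0.12, adjusted p = 0.00442 by limma) and was at −0.41 (adjusted p = 0.0884 by limma) in WT mice. No enzyme of this list passed between genotypes in either diet by limma.

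All 14 regulators of the pathway had rows. For ethanol, 1 was higher and 1 lower in WT mice (median 0.15), and none was higher and 4 lower in *Apoe* KO mice (median −0.10). *Nr1i3*, the xenobiotic receptor CAR, fell in both, by 0.61 (SE 0.11) and 0.69 (SE 0.11) on the log2 scale, with adjusted p-values of 0.00376 and 0.000745 by limma. In *Apoe* KO mice, *Rxra*, the partner receptor of FXR, was at −0.43 (SE 0.09, adjusted p = 0.00418 by limma) and *Mafg*, a repressor that FXR induces, at −0.45 (SE 0.10, adjusted p = 0.00813 by limma). Neither passed after centring on hepatocyte markers, with log2 fold changes of −0.35 and −0.37.

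*Nr1i2*, the xenobiotic receptor PXR, was at −0.36 (SE 0.12, adjusted p = 0.0481 by limma) in *Apoe* KO mice, a call kept in 3 of 9 fits that each left out 1 mouse. *Prox1*, a corepressor of *Cyp7a1*, was at 0.38 (SE 0.11, adjusted p = 0.0339 by limma) in WT mice, a call kept in 4 of 9. *Nr5a2*, the gene of LRH-1, which drives *Cyp8b1* and *Nr0b2*, was at 0.29 (SE 0.11, adjusted p = 0.113 by limma) in WT and −0.26 (SE 0.09, adjusted p = 0.0619 by limma) in *Apoe* KO mice. Its interaction passed (−0.55, SE 0.14, adjusted p = 0.0405 by limma) but did so in 6 of 18 fits that left out 1 mouse, and not without EtOH-fed *Apoe* KO mouse 1 (adjusted p = 0.0527 by limma). After centring on hepatocyte markers it was −0.27 (adjusted p = 0.373 by limma).

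Of 12 other FXR target genes, 9 had rows. For ethanol, 3 were higher and 1 lower in WT mice (median 0.25), and 3 were higher and none lower in *Apoe* KO mice (median −0.12). *Insig2*, which restrains cholesterol synthesis, rose by 1.69 (SE 0.21) and 2.04 (SE 0.23) on the log2 scale, with adjusted p-values of 0.000279 and 8.4e-05 by limma. *Sdc1*, the gene of syndecan, rose by 0.83 (SE 0.15) and 0.73 (SE 0.18), with adjusted p-values of 0.00405 and 0.01 by limma. *Abcb4* rose by 0.52 (SE 0.11) and 0.50 (SE 0.11), with adjusted p-values of 0.00892 and 0.00508 by limma, although in WT mice not after centring on hepatocyte markers (0.32). These genes rose in both genotypes, whereas *Nr0b2*, also an FXR target, was the lowest point of the plot of ethanol responses. *Abcb11*, *Slc10a1*, *Osgin1*, *Fetub* and *Apoc2* of this list were called with ethanol in neither genotype. The mean log2(value + 1) of *Abcb11* was 13.14 in pair-fed and 13.39 in EtOH-fed WT mice, and 13.27 and 13.1 in *Apoe* KO mice. The counts and medians of the list are not a reading of FXR activity.

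*Pltp*, the phospholipid transfer protein, followed another pattern. It was 2185 to 2564 in pair-fed WT, 708 to 1112 in pair-fed *Apoe* KO, 436 to 627 in EtOH-fed WT and 919 to 1298 in EtOH-fed *Apoe* KO mice. With ethanol it fell in WT mice (log2 fold change −2.09, SE 0.12, adjusted p = 1.71e-06 by limma) and was at 0.38 (SE 0.15, adjusted p = 0.0933 by limma) in *Apoe* KO mice. The interaction was 2.47 (SE 0.20, adjusted p = 1.07e-06 by limma), and its call held under each alternative and without each mouse. Between genotypes *Pltp* was lower in pair-fed (−1.47, SE 0.14, adjusted p = 0.000154 by limma) and higher in EtOH-fed *Apoe* KO mice (1.0, SE 0.14, adjusted p = 0.00221 by limma).

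*Apoc2*, an apolipoprotein gene that neighbours *Apoe*, was lower in *Apoe* KO mice on either diet (−1.10, SE 0.24, adjusted p = 0.033 and −1.34, SE 0.31, adjusted p = 0.029 by limma). These calls were kept in 3 of 9 and 4 of 9 fits that left out 1 mouse.

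**Figure D4:**
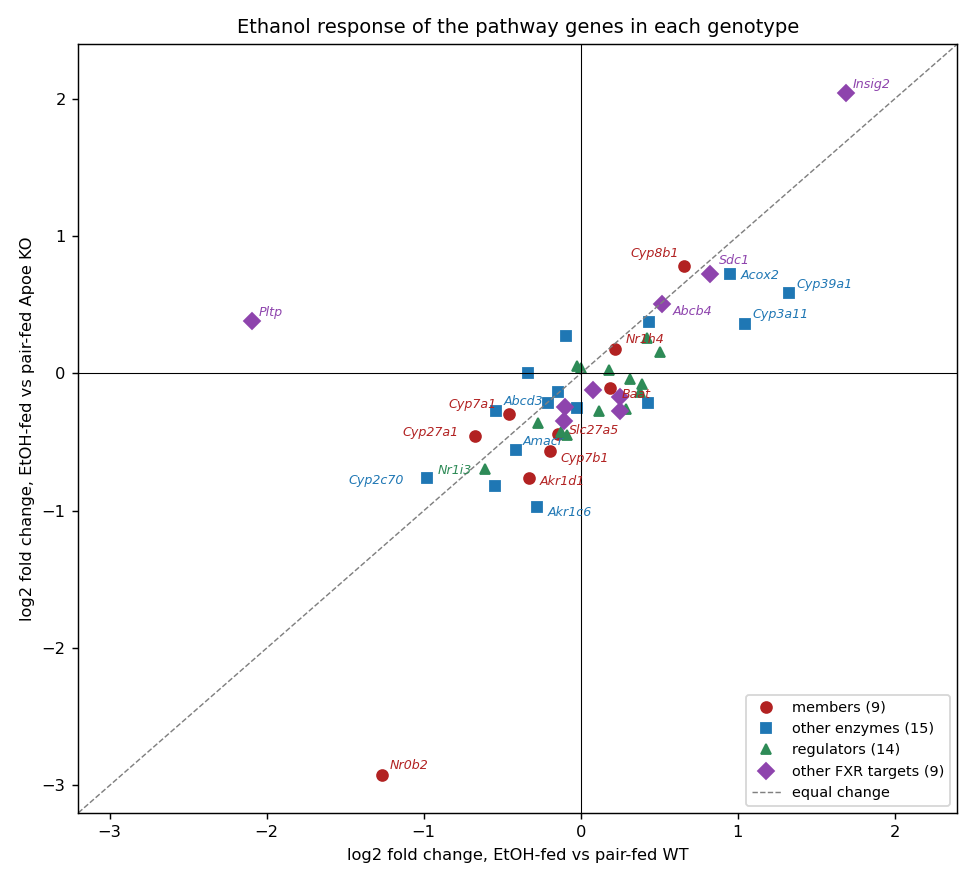
log2 fold change with ethanol in WT mice (x axis) against that in Apoe KO mice (y axis) for the 9 genes (red circles), 15 other enzymes (blue squares), 14 regulators (green triangles) and 9 other FXR targets (purple diamonds); the dashed line marks equal change, and names are given for the 9 genes and for called genes that moved by more than 0.5. Nr0b2 lies at −1.26 and −2.92, Pltp at −2.09 and 0.38, and Insig2 at 1.69 and 2.04.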

How the data were processed

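Liver RNA of 18 mice was analysed, each mouse 1 replicate, with groups taken from the deposited labels. RNA was extracted with TRIzol and selected for poly(A). Per the labels and the submitters' processing notes, the authors used FastQC, Trimmomatic, HISAT2, SAMtools, featureCounts and DESeq2 with GRCm38. Versions and annotation are not given in the sources used here. The authors deposited 1 table with a signal for each mouse, made from read counts by scaling to a common total and rounding. The table's other columns, also deposited by the authors, hold a mean signal, log2 fold changes, a score (the test statistic), and p-values with adjusted p-values, and were not used. Of 15247 lines, 195 repeat a gene with identical values, which left 15052 genes, whose smallest mean value is 12.1. Lower genes were not analysed here. The columns of all 18 mice were used.

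Because the values are scaled, no test of counts was run. The test was limma 3.58.1 (R 4.3.3) on log2(value + 1) with a trend of the spread with intensity, with Benjamini-Hochberg adjusted p-values for 15052 genes, at an adjusted p under 0.05. The mice of both groups compared entered each fit, and all 18 the interaction. On the log2(value + 1) scale, changes of low genes are understated. Tested on simulated data, 147 (interaction) to 192 (genotype, EtOH-fed mice) of 200 genes changed at random were called, by the 5 fits over 15052 genes. The simulated size of change and spread within groups were not matched to those of the genes described here. These counts therefore check the fits only, and do not give how often a change in the genes described here would be called. Depth was estimated from the spacing of low values, where a step was accepted with a log-likelihood lead of over 10. It was not resolved in 5 mice. Counting errors cover counting only.

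The 10 genes and the lists of pathway genes, sex-biased genes and cell type markers were chosen with earlier results of these data known. Named from the lists are genes called in any of the 5 comparisons, at most 6 per list in the order of their smallest adjusted p. Likeness names 3 genes for each of *Cyp7a1*, *Cyp8b1*, *Cyp7b1* and *Nr0b2*. Coordinates and exon lengths are from GENCODE on GRCm38, and no exon of the 9 genes overlaps another gene. Alternatives were median-of-ratios size factors, centring on 8 hepatocyte markers, a mean value of at least 100, adding 10 in place of 1 before the log, all 4 groups in the fit, a replicate block and leaving out each mouse. Python 3.11.15, pandas 2.3.3, numpy 2.4.6 and matplotlib 3.10.9 were used.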

Additional observations from a re-analysis of the deposited data

Results flagged for a closer look

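A mouse stood apart from the others of its group, by Dixon's ratio of gap to range at the 95% level, in 3 of 36 groups of values, where chance gives about 1 in 20. *Cyp7b1* was 410 in pair-fed WT mouse 4, against 779 to 860 in the others (ratio 0.866). *Nr0b2* was 539 in pair-fed WT mouse 2, against 1081 to 1170 (ratio 0.898). *Baat* was 9267 in EtOH-fed WT mouse 4, against 7291 to 7666 (ratio 0.791).

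The response to ethanol differed between genotypes, by limma's test of the interaction, for 3 genes of the wider pathway. *Akr1c6* had an interaction of −0.69 on the log2 scale, *Nr5a2* one of −0.55 and *Pltp* one of 2.47, with adjusted p-values of 0.0117, 0.0405 and 1.07e-06 by limma. After centring on hepatocyte markers, *Akr1c6* was −0.42 and *Nr5a2* −0.27, and neither passed.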

How the results depend on the processing

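Of 747 recomputed values for the 9 genes and 5 comparisons, 672 kept their direction and their side of the threshold, 20 passed where the value reported did not, 18 no longer passed and 37 changed sign, the last only among values that were not called. Ethanol calls for *Nr0b2*, *Akr1d1* and *Cyp27a1* in *Apoe* KO mice, and for *Cyp27a1* in WT mice, held in each alternative and without each mouse. The cause of the changes below was not tested. After centring on hepatocyte markers, *Baat* was −0.01 for ethanol in WT mice. In pair-fed mice the same centring turned the genotype values of *Cyp8b1* (−0.08), *Cyp27a1* (−0.30), *Nr1h4* (−0.26), *Akr1d1* (−0.26), *Baat* (−0.23) and *Slc27a5* (−0.11) and called 1 gene (*Cyp7a1*). In EtOH-fed mice it gave *Nr1h4* −0.02 and called 1 gene (*Nr0b2*), and in the interaction it gave *Nr1h4* 0.24. It moved the median of all genes from −0.00 to −0.31 in pair-fed mice. Median-of-ratios size factors gave *Cyp7b1* −0.03 and *Nr1h4* −0.12 between the EtOH-fed genotypes, called 1 gene there (*Akr1d1*), and gave *Cyp8b1* −0.02 in the interaction. With all 4 groups in the fit, 2 genes were called between the EtOH-fed genotypes (*Nr0b2* and *Akr1d1*). Without each mouse in turn, the count of the 9 genes called ranged from 1 to 2 for ethanol in WT mice, from 4 to 6 for ethanol in *Apoe* KO mice, from 0 to 2 between the EtOH-fed genotypes and from 0 to 1 for the interaction, and it was 0 in each fit in pair-fed mice.

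Leaving out each mouse in turn, genotype values in pair-fed mice ranged from −0.07 to 0.13 for *Cyp27a1*, from −0.43 to 0.05 for *Nr0b2*, from −0.02 to 0.09 for *Nr1h4* and from −0.02 to 0.10 for *Akr1d1*. In EtOH-fed mice they ranged from −0.04 to 0.23 for *Cyp7b1* and from −0.09 to 0.08 for *Nr1h4*. Interaction values ranged from −0.12 to 0.34 for *Cyp7a1*, from −0.09 to 0.32 for *Cyp8b1* and from −0.14 to 0.04 for *Nr1h4*.

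Mice share replicate numbers across groups, but same-numbered mice are different animals, and the correlations of their deviations ranged from −0.315 to 0.331. Between the EtOH-fed genotypes 3 of 4 numbers were above 0.1 (range −0.0389 to 0.331), and elsewhere at most 1 of 4 was, so the numbers were not taken to pair mice. A fit with the replicate number as a block called 1 gene between the EtOH-fed genotypes (*Nr0b2*, −1.93, adjusted p = 0.0241 by limma) and gave *Cyp27a1* −0.01 in pair-fed mice. For the interaction the block leaves numbers 1, 2 and 4, hence also no EtOH-fed WT mouse 5, and it called 2 genes (*Nr0b2*, −2.36, and *Akr1d1*, −0.67), with *Cyp7a1* at −0.07, *Cyp8b1* at −0.14 and *Nr1h4* at 0.04. *Akr1c6* no longer passed for the interaction (adjusted p = 0.0575 by limma).

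Over all genes, the count called for ethanol in WT mice was 1912, against 1176 after hepatocyte centring and 1186 to 1904 without each mouse. Between pair-fed genotypes it was 261, against 2356 after centring, 392 with the block and 73 to 670 without each mouse. Between EtOH-fed genotypes it was 706, against 212, 1083 and 327 to 620, and for the interaction 428, with 167 to 561 without each mouse. Among the EtOH-fed genotypes 639 genes were higher and 67 lower, against 380 and 126 with median-of-ratios size factors, and for the interaction 392 and 36 against 294 and 84. Depth limits *Nr0b2* most, where the fewest estimated reads in a mouse were 28.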

Other observations

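Sex-biased genes of the liver were read beside *Cyp7b1*. Of 9 female-biased genes, 3 were lower and none higher in pair-fed *Apoe* KO than in pair-fed WT mice (median log2 difference −0.99, against −0.00 over all genes), among them *Cyp2b9* (−5.17, adjusted p = 0.000216 by limma), *Cyp2b13* (−5.63, adjusted p = 0.000189 by limma) and *Cyp17a1* (−0.99, adjusted p = 0.0039 by limma). Of 9 male-biased genes, 2 were higher, namely *Slco1a1* (1.96, adjusted p = 0.0494 by limma) and *Mup20* (0.83, adjusted p = 0.0392 by limma). Of all genes, 1.73% were called in this comparison. *Cyp2b9* and *Cyp2b13* lie 6.47 and 6.36 Mb from *Apoe* on chromosome 7. *Cyp2a4* and *Sult2a1*, at 6.61 and 5.86 Mb, were not called in pair-fed mice (0.13 and −0.58). Under ethanol, the genotype values of *Cyp2b9* and *Cyp2b13* were −4.99 and −5.27, both called. That of *Cyp17a1*, on chromosome 19, was 0.47 and did not pass. The part of chromosomal position in these values was not tested. With ethanol, 3 male-biased genes (*Slco1a1*, *Hsd3b5* and *Nudt7*) were lower in both genotypes, where 6.52% (WT) and 6.92% (*Apoe* KO) of all genes were. *Cyp2d9* was higher in WT mice (0.89, adjusted p = 0.00788 by limma) and at 0.12 (adjusted p = 0.859 by limma) in *Apoe* KO mice. Of the female-biased genes, 3 were also lower in WT mice (*A1bg*, −3.76, *Sult3a1*, −2.08, and *Sult2a1*, −0.81) and 2 higher (*Cyp2b9*, 0.8, and *Cyp2b13*, 1.0). The median in WT mice was −0.42 for either list. In *Apoe* KO mice 1 female-biased gene was higher and 1 lower. The EtOH-fed *Apoe* KO values of these sex-biased genes include mouse 1, which goes against the label female, and are not given without it. The part of that mouse in them was not tested.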
